A study of Homo sapiens with 12 samples.

Results

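The mRNAs described here encode 11 SR proteins (SRSF1 to SRSF11), the SR-related factors TRA2A, TRA2B, SRRM1 and SRRM2, 20 heterogeneous nuclear ribonucleoproteins (hnRNPs) and the 6 kinases CLK1 to CLK4, SRPK1 and SRPK2. They were taken by gene symbol from a table of 63036 identifiers, and all 41 were found and passed the filter on low values. SR proteins bind exons through RNA recognition motifs and recruit the splicing machinery through arginine and serine-rich tails, whereas many hnRNPs coat nascent RNA and oppose exon inclusion. SRPK kinases phosphorylate the tails and send SR proteins into the nucleus, and CLK kinases release them from nuclear speckles. Many of these genes also limit their own mRNA by splicing in a poison exon, which carries an early stop codon and sends the transcript to nonsense-mediated decay.

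Polyadenylated RNA was sequenced from HCT15 cells overexpressing RNF26, HCT15 control cells, HCT116 cells overexpressing RNF26 and HCT116 control cells, with 3 libraries in each of the 4 groups. HCT15 and HCT116 are human colorectal carcinoma lines, the first with a mutant APC gene and the second with a mutant beta-catenin gene, so that Wnt signalling is altered in controls and overexpressing cells alike. RNF26 is a ubiquitin ligase of the endoplasmic reticulum membrane, and the study concerned its role in colorectal cancer cells and the Wnt pathway. How it was overexpressed, what the control cells received, and whether the 3 libraries of a group came from separate cultures or clones are not stated in any source at hand, and the p-values therefore reflect only how these libraries varied, which can be technical variation.

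RNF26, the overexpressed gene, was at 53.5, 54.6 and 54.4 TPM in HCT15 cells with RNF26, against 26.7, 27.8 and 26.4 TPM in HCT15 control cells, a 2.01-fold difference of means. In HCT116 it was at 299, 334 and 255 TPM with RNF26, against 15.6, 18.4 and 16.5 TPM in controls, 17.6-fold. Neither line's groups overlapped, and an exact two-sided permutation test gave p = 0.1 in each, the smallest that 3 against 3 allows. TPM (transcripts per 1000000) divides out depth, so the depth is unknown, and 13582 to 14135 genes reached 1 TPM in a library. Of 8 colorectal epithelium markers EPCAM, KRT8, KRT18 and KRT19 led in both lines and CDX1 stayed at or near 0, while the summed level of 8 was 4357.3 to 4543.4 TPM in HCT15 cells with RNF26 and 4821.1 to 5598.9 TPM in HCT15 controls. Sums of 6 fibroblast markers (DCN and LUM listed at 0), 5 immune markers (CD3E at 0) and 3 endothelial markers stayed at or below 2.80, 7.39 and 0.27 TPM in the 12 libraries, and 2 erythroid markers at or below 5.2 TPM. Of 6 neural markers TUBB3 alone exceeded 1 TPM. It averaged 46.8 ± 2.45 TPM in HCT15 cells with RNF26 and 58.6 ± 5.67 TPM in HCT15 controls (SD, n = 3 each), a fall by limma (log2 fold change -0.32, adjusted p = 0.0124). TUBB3 averaged 69.5 ± 5.64 TPM in HCT116 cells with RNF26 and 71.9 ± 2.78 TPM in HCT116 controls (SD, n = 3 each). HCT15 control replicate 3 stood apart by its mitochondrial share of 25.86% of TPM, against 16.42% to 19.16% in the other 5 HCT15 libraries.

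Before the values, 3 promoters are shown to give the sequence in front of the RefSeq start of genes that behaved differently in HCT15: HNRNPA2B1 and HNRNPM fell, and HNRNPC was not called. Each run is the 250 bases before the start annotated in RefSeq on GRCh38.p14, 5' to 3' on the gene's strand. Gene spans printed further on are from GENCODE and can start further upstream. The HNRNPA2B1 run lies within that gene's span, and the HNRNPM and HNRNPC runs overlap theirs in part. Capitals mark every match on either strand to 6 searched motifs, none of which holds another. These were the E-box as CACGTG, the CCAAT box by its own letters, the TATA box as TATAAA, the GC box as GGGCGG, an ETS motif as CCGGAAG, and the cyclic AMP response element as TGACGTCA.
HNRNPA2B1: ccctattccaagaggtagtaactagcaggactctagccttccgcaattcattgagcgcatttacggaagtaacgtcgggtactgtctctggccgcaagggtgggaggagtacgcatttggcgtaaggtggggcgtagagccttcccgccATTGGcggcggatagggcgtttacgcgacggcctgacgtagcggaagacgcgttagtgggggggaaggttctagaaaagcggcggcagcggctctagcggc
HNRNPM: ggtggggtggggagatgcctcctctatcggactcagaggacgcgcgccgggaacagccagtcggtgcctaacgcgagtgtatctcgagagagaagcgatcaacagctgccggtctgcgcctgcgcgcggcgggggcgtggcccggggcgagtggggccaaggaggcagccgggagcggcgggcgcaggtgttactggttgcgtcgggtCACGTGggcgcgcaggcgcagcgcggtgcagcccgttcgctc
HNRNPC: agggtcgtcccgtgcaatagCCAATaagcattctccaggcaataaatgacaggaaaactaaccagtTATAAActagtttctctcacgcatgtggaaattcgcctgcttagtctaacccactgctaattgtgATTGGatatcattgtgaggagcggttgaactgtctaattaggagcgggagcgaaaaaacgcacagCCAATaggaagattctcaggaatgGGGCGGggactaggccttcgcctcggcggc
The HNRNPA2B1 run (chr7:26200747-26200996, minus strand) holds 1 CCAAT box in reverse, the HNRNPM run (chr19:8444725-8444974, plus strand) an E-box, and the HNRNPC run (chr14:21269443-21269692, minus strand) CCAAT boxes on both strands, a TATA box and a GC box. Promoters of 38 of the 41 genes were in the table (not HNRNPA1, SRSF2 and TRA2A). In the windows of 300 bases, of which 50 lie after the start, the E-box was in 9 of 38 (23.7%) against 7.4% of 27305 promoters, and the GC box in 25 (65.8%) against 44.6%. The CCAAT box was in 17 (44.7%) against 35.7%, the TATA box in 5 of 38 against 3264 of 27305, and the ETS motif in 5 (13.2%) against 10.7%. The cyclic AMP response element was in 0 of 38, against 2.0%. The median GC content of these windows was 65.0% for the members and 58.3% for all promoters, and the shares were not matched for it. The E-box was in 4 of the 22 matched genes that fell in HCT15 (HNRNPA3, HNRNPM, HNRNPUL1 and CLK2) and in 5 of the 16 that were not called. These matches are a description of letters, not of bound sites.

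Levels of these mRNAs spanned 5.33 to 2933 TPM over the 41 genes and 12 libraries, and the median of mean TPM was 163 over the 41 genes and 12.1 over 12486 tested protein-coding genes. TPM is scaled per transcript length, so genes can be ordered within a library. HNRNPA1, an hnRNP that represses exon inclusion, was the highest in both control lines, at 2586 ± 409.7 TPM in HCT15 and 2018 ± 64.0 TPM in HCT116 (SD, n = 3 each). HNRNPC, which binds uridine tracts and keeps Alu-derived exons out of mRNA, came next, at 1958 ± 351 TPM in HCT15 controls and 1203 ± 5.57 TPM in HCT116 controls (SD, n = 3 each). The HCT15 control ranges of HNRNPA1 and HNRNPC overlapped, and the HCT116 control ranges did not. HNRNPA2B1 came after them in both lines, and HNRNPH1 and HNRNPK followed. HNRNPH1 and HNRNPK overlapped in HCT15 controls (679.9, 487 and 720.1 TPM against 586, 524 and 582 TPM). In HCT116 controls HNRNPK lay above HNRNPH1 in every library. The lowest was HNRNPUL2, with means of 11.3 and 6.01 TPM in HCT15 and HCT116 controls, and CLK4 lay next to it.

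**Figure D1:**
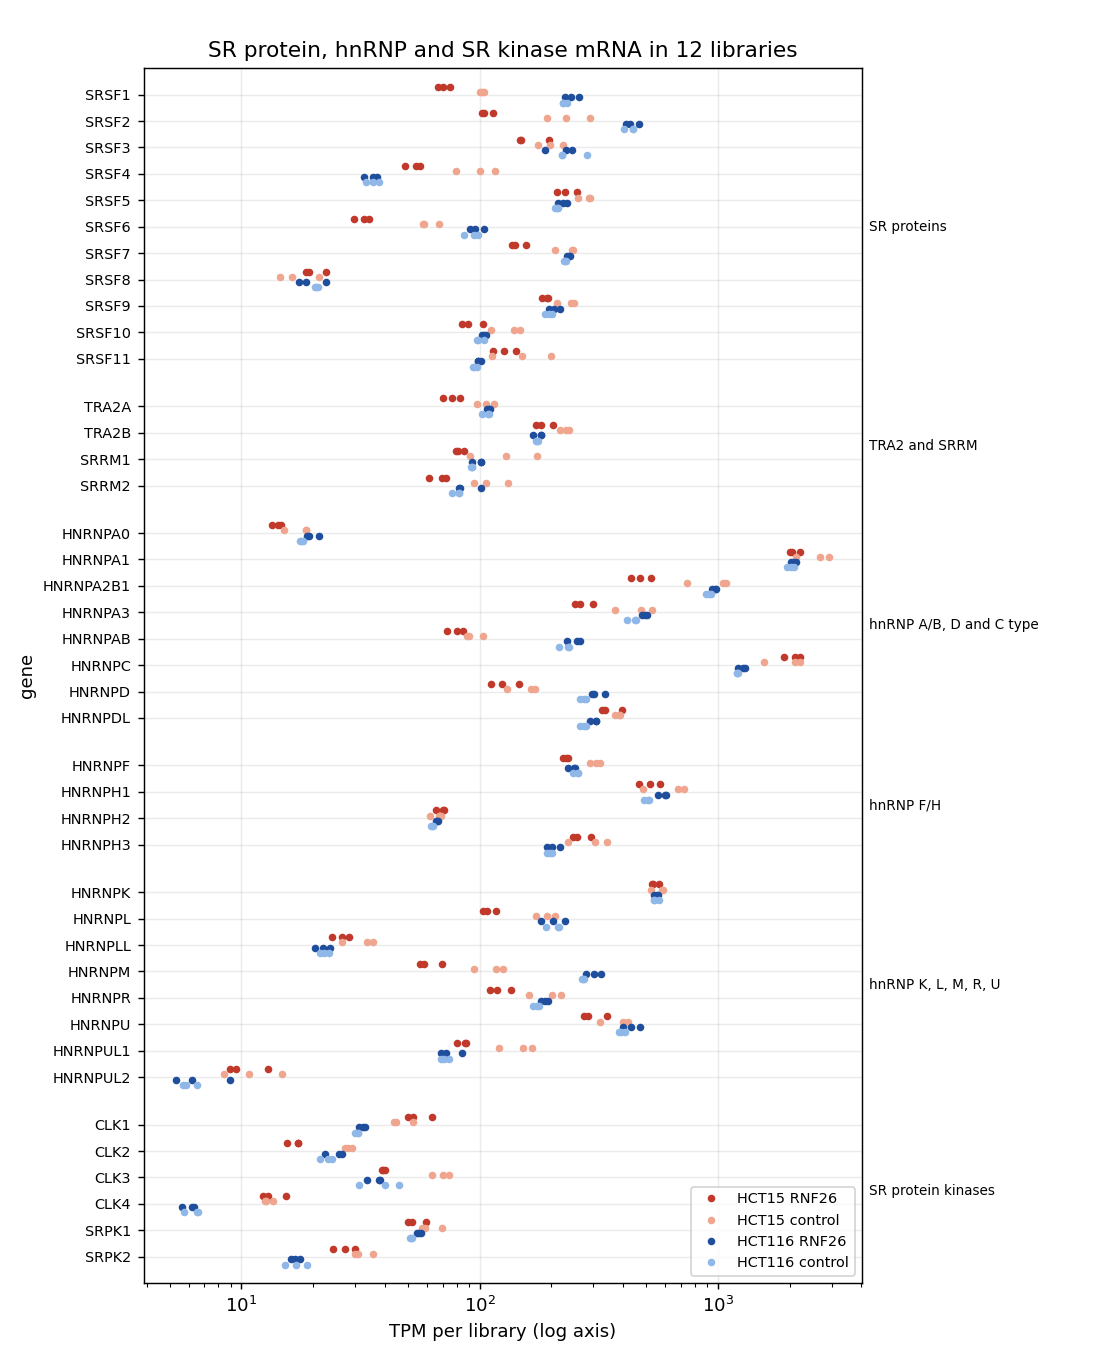
TPM per library on a log axis for the 41 genes, grouped by class, with 3 points for each of HCT15 RNF26, HCT15 control, HCT116 RNF26 and HCT116 control. HNRNPA1 and HNRNPC are the highest, HNRNPUL2 and CLK4 are the lowest, and the HCT15 RNF26 points lie left of the HCT15 control points for 23 genes without overlap.

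In HCT15, 25 of the 41 mRNAs (61.0%) were lower with RNF26 overexpression and 0 were higher, by limma at an adjusted p under 0.05 over the 15584 genes tested. Over all tested genes 31.2% were lower and 5.39% higher. That share includes many low genes, whereas no member was below 5.33 TPM in any library. Among the 10700 genes with 5 TPM or more in at least 3 libraries, 41% were lower and 7.07% higher. The same 25 members were lower there and 0 were higher, so the members stood out less against that background. At an unadjusted p under 0.05, 29 members were lower and 1, CLK1, was higher, against 37.3% and 8.12% of all genes. The median log2 fold change was -0.30 over the members and -0.17 over all genes. For 23 members (56.1%) all HCT15 libraries with RNF26 lay below all HCT15 controls, and for 0 they lay above. Over all genes 35.9% lay below and 7.23% above, 43.1% in either direction. Changes of mean TPM ran from -55.0% to 18.0%. In bulk libraries, fewer cells holding an mRNA and less of it per cell cannot be told apart.

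**Figure D2:**
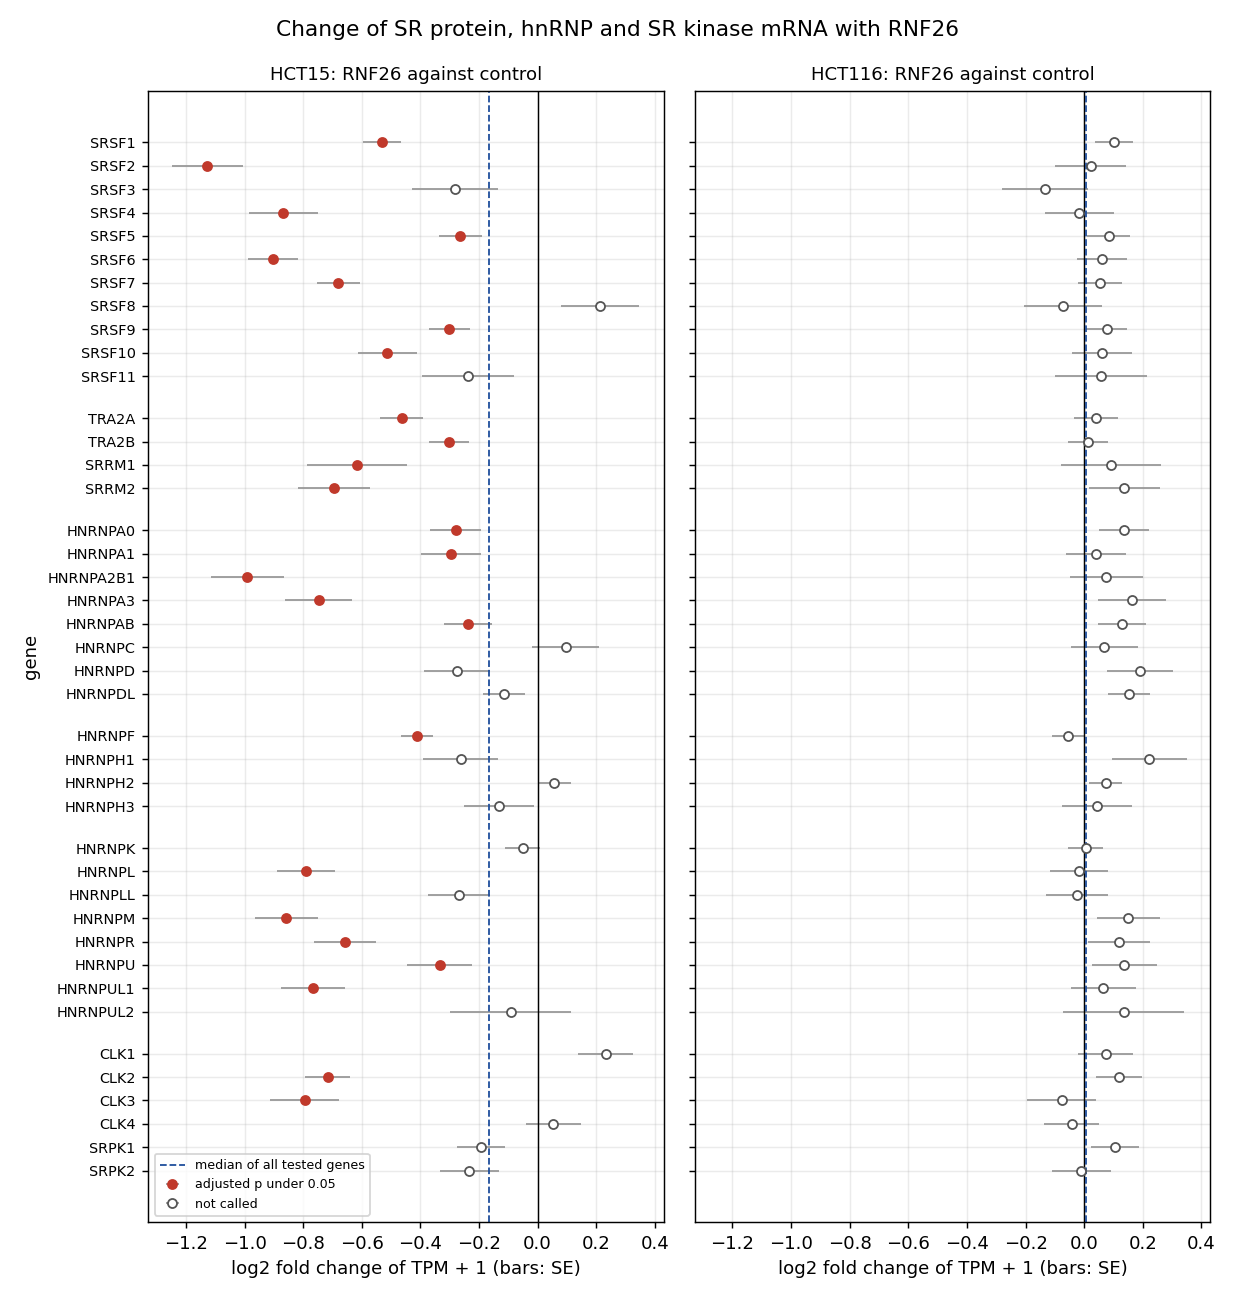
log2 fold change of TPM + 1 with RNF26, with its SE, in HCT15 (left) and HCT116 (right) for the 41 genes, where filled points passed an adjusted p under 0.05 and the dashed line is the median of all tested genes. In HCT15 there are 25 filled points, all below 0, and in HCT116 there are 0, with 32 of 41 points above 0.

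The count was also taken under other scalings of the table. Cytosolic ribosomal protein mRNAs took 26.24% to 27.43% of TPM in HCT15 cells with RNF26, against 17.5% to 24.24% in HCT15 controls, and 46 of 77 of them were higher. After scaling by median ratios, which moved the median change of all genes to 0, 17 members were lower and 5 (SRSF8, HNRNPH2, HNRNPK, CLK1 and CLK4) higher, with 16.7% and 14.4% of all genes, and the members' median was -0.081. After quantile normalization 20 were lower and 4 (SRSF8, HNRNPH2, CLK1 and CLK4) higher, with 16.2% and 14.6% of all genes. When mitochondrial and ribosomal genes were left out, 19 were lower and 2 (HNRNPH2 and CLK1) higher, with 22.6% and 9.13% of all genes, and the median was -0.18 over the members and -0.080 over all genes. The main fit took the spread of each gene from all 4 groups. In a fit of HCT15 alone 19 members were lower and 0 higher, with 22.6% and 2.4% of all genes. In all 24 alternatives 17 of the 25 kept their call: SRSF1, SRSF2, SRSF4, SRSF6, SRSF7, SRSF10, TRA2A, SRRM2, HNRNPA2B1, HNRNPA3, HNRNPF, HNRNPL, HNRNPM, HNRNPR, HNRNPUL1, CLK2 and CLK3.

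Among SR proteins 8 of 11 fell in HCT15, against 31.2% of all genes. The median log2 fold change was -0.51 over the 11 and -0.17 over all genes. SRSF2 (SC35; chr17:76734115-76737374, minus strand), which binds exonic enhancers and marks nuclear speckles, was at 104, 102 and 114 TPM in HCT15 cells with RNF26, against 289, 192 and 229.8 TPM in HCT15 control cells. The groups were far from overlapping, and SRSF2 had the steepest fall of the 41 (log2 fold change -1.13, SE 0.12, limma adjusted p = 9.28e-05). SRSF6 (chr20:43457928-43464247, plus strand) had the smallest p and was at 29.7, 34.3 and 32.7 TPM in HCT15 cells with RNF26, against 67.5, 57.6 and 58.5 TPM in HCT15 control cells. Every library with RNF26 was below every control (log2 fold change -0.90, SE 0.086, limma adjusted p = 5.32e-05). SRSF7, an SR protein with a zinc knuckle, was at 141, 157 and 136 TPM in HCT15 cells with RNF26, against 246, 208 and 243 TPM in HCT15 control cells. Its groups did not overlap either (log2 fold change -0.68, SE 0.074, limma adjusted p = 9.45e-05). SRSF1, the founding member of the family and a proto-oncogene, was at 66.5, 74.9 and 70.1 TPM in HCT15 cells with RNF26, against 105, 102 and 100.04 TPM in HCT15 control cells. Replicates of each group lay close together, and the groups were apart (log2 fold change -0.53, SE 0.064, limma adjusted p = 0.000159). SRSF4, an SR protein with a long tail, was at 54.3, 56.0 and 48.8 TPM in HCT15 cells with RNF26, against 100.03, 79.8 and 115.78 TPM in HCT15 control cells, again without overlap (log2 fold change -0.87, SE 0.12, limma adjusted p = 0.000293).

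The smaller falls among SR proteins were those of SRSF10, which turns into a repressor when dephosphorylated, at -0.51 (limma adjusted p = 0.00259), SRSF9 at -0.30 (limma adjusted p = 0.00678) and SRSF5 at -0.26 (limma adjusted p = 0.0164). SRSF5 was at 212, 256 and 229 TPM in HCT15 cells with RNF26, against 287, 259.6 and 289 TPM in HCT15 control cells, so that the nearest libraries of the groups nearly met. Its call was lost without HCT15 control replicate 1 or without HCT15 RNF26 replicate 1. SRSF3, the smallest SR protein and an mRNA export adaptor, was not called, at 149, 195 and 147 TPM in HCT15 cells with RNF26, against 197, 224 and 175 TPM in HCT15 control cells, with groups that overlapped. SRSF11 was not called either, at 114, 142 and 127 TPM in HCT15 cells with RNF26, against 151, 113 and 199 TPM in HCT15 control cells, where control replicate 2 lay below the RNF26 libraries. SRSF8, a close relative of SRSF2, was alone among the 11 with a value above 0 (log2 fold change 0.21, SE 0.13, limma adjusted p = 0.242). It was at 18.6, 22.6 and 19.3 TPM in HCT15 cells with RNF26, against 16.3, 21.3 and 14.5 TPM in HCT15 control cells, and control replicate 2 again overlapped the RNF26 group.

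All 4 SR-related factors fell, against 31.2% of all genes. TRA2A and TRA2B, human counterparts of Drosophila transformer-2 that bind GAA-rich exonic enhancers, changed by -0.46 (limma adjusted p = 0.000737) and -0.30 (limma adjusted p = 0.00549) on the log2 scale. TRA2A was at 70.1, 83.1 and 76.6 TPM in HCT15 cells with RNF26, against 106, 97.7 and 114 TPM in HCT15 control cells, and the groups did not overlap. SRRM2, the scaffold of nuclear speckles, was at 61.2, 69.5 and 72.5 TPM in HCT15 cells with RNF26, against 107, 94.2 and 132 TPM in HCT15 control cells, without overlap (log2 fold change -0.69, SE 0.12, limma adjusted p = 0.00129). SRRM1, a splicing coactivator, was at 81.1, 86.0 and 79.8 TPM in HCT15 cells with RNF26, against 128, 90.7 and 174 TPM in HCT15 control cells. Its control libraries were widely spread (log2 fold change -0.62, SE 0.17, limma adjusted p = 0.0154), and its call was lost after each of the 3 rescalings above and in a fit of HCT15 alone.

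Of 20 hnRNPs 11 fell in HCT15 and 0 rose, against 31.2% and 5.39% of all genes. The median was -0.28 over the 20 and -0.17 over all genes. In the A/B, C and D group, 5 of 8 fell. HNRNPA2B1 (chr7:26173057-26201529, minus strand), which encodes the abundant A2 and B1 proteins, was at 433, 524 and 472 TPM in HCT15 cells with RNF26, against 1051, 742 and 1081 TPM in HCT15 control cells. The highest library with RNF26 was well under the lowest control (log2 fold change -0.99, SE 0.12, limma adjusted p = 0.000195). HNRNPA3, its close relative, was at 251, 298 and 263 TPM in HCT15 cells with RNF26, against 478, 369 and 530.0 TPM in HCT15 control cells and likewise did not overlap (log2 fold change -0.75, SE 0.12, limma adjusted p = 0.000603). HNRNPA1 passed the threshold narrowly (log2 fold change -0.29, SE 0.10, limma adjusted p = 0.0425), and 17 of 24 alternatives ended the call. Its TPM values were 2007, 2217 and 2051 TPM with RNF26, against 2933, 2134 and 2690.3 TPM in controls, and control replicate 2 lay within the RNF26 range. HNRNPA0 changed by -0.28 (limma adjusted p = 0.0258) and HNRNPAB by -0.24 (limma adjusted p = 0.0404), and each call was lost without HCT15 control replicate 1 or HCT15 RNF26 replicate 1, among other settings. HNRNPC (chr14:21209136-21269494, minus strand) was the member of this group with a value above 0 (log2 fold change 0.10, SE 0.12, limma adjusted p = 0.567). It was at 1896, 2208 and 2112 TPM in HCT15 cells with RNF26, against 2101, 1558 and 2214 TPM in HCT15 control cells, and the ranges overlapped. Its log2 value ran from -0.12 to 0.32 over the 24 alternatives. HNRNPD (AUF1), which binds AU-rich elements and promotes mRNA decay, had a value of -0.28 (limma adjusted p = 0.0799), and HNRNPDL had -0.12 (limma adjusted p = 0.249). Neither was called.

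Of the 4 F/H hnRNPs, which bind runs of guanosine, HNRNPF alone fell, against 31.2% of all genes. Their median log2 fold change was -0.20, near the -0.17 of all genes. HNRNPF was at 230.0, 235 and 224 TPM in HCT15 cells with RNF26, against 319, 291 and 309 TPM in HCT15 control cells (log2 fold change -0.41, SE 0.055, limma adjusted p = 0.000251). HNRNPH1 was not called (log2 fold change -0.26, SE 0.13, limma adjusted p = 0.133), and HNRNPH3 had a value of -0.13 (limma adjusted p = 0.436). HNRNPH2 was the member of this group above 0, at 65.6, 70.3 and 70.5 TPM in HCT15 cells with RNF26, against 68.6, 62.0 and 67.7 TPM in HCT15 control cells, and the ranges overlapped (log2 fold change 0.06, SE 0.056, limma adjusted p = 0.469). Its locus shares exons with the readthrough RPL36A-HNRNPH2, which was at 514, 874 and 284 TPM in HCT15 cells with RNF26, against 61.5, 229 and 38.97 TPM in HCT15 controls, so the split of reads between them is uncertain.

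Of the remaining 8 hnRNPs 5 fell, against 31.2% of all genes. HNRNPM (chr19:8444767-8489114, plus strand), which binds GU-rich RNA and regulates splicing in epithelial to mesenchymal transition, was at 56.5, 69.5 and 58.5 TPM in HCT15 cells with RNF26, against 126, 94.6 and 117 TPM in HCT15 control cells. No library with RNF26 reached the lowest control (log2 fold change -0.86, SE 0.11, limma adjusted p = 0.00019). HNRNPL, which binds CA repeats, was at 108, 118 and 104 TPM in HCT15 cells with RNF26, against 207, 192 and 172 TPM in HCT15 control cells, without overlap (log2 fold change -0.79, SE 0.099, limma adjusted p = 0.00019). HNRNPUL1, a relative of HNRNPU with a part in the DNA damage response, was at 80.2, 87.7 and 86.9 TPM in HCT15 cells with RNF26, against 151, 121 and 167 TPM in HCT15 control cells, also without overlap (log2 fold change -0.77, SE 0.11, limma adjusted p = 0.000394). HNRNPR fell by 0.66 on the log2 scale (limma adjusted p = 0.000786). HNRNPU, a chromatin-associated scaffold protein, was called (log2 fold change -0.33, SE 0.11, limma adjusted p = 0.0358) although HCT15 control replicate 2 lay inside the RNF26 range, and 12 of 24 alternatives ended its call. HNRNPK, which binds cytidine-rich sequence, was not called, at 530.5, 567 and 535 TPM in HCT15 cells with RNF26, against 586, 524 and 582 TPM in HCT15 control cells (log2 fold change -0.05, SE 0.060, limma adjusted p = 0.559). HNRNPLL had a value of -0.27 (limma adjusted p = 0.0718) and HNRNPUL2 of -0.09 (limma adjusted p = 0.781), and neither was called. HNRNPUL2 ran from -0.26 to 0.17 over the alternatives.

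The kinases split. CLK2 (chr1:155262868-155278491, minus strand) was at 15.6, 17.2 and 17.3 TPM in HCT15 cells with RNF26, against 29.04, 27.9 and 27.2 TPM in HCT15 control cells. The replicates of each group lay close together and the groups were far apart (log2 fold change -0.72, SE 0.077, limma adjusted p = 9.28e-05). CLK3 was at 38.9, 40.1 and 39.4 TPM in HCT15 cells with RNF26, against 74.3, 63.1 and 70.4 TPM in HCT15 control cells, without overlap (log2 fold change -0.80, SE 0.12, limma adjusted p = 0.000491). CLK1 (chr2:200853009-200864744, minus strand) was at 49.8, 63.1 and 52.6 TPM in HCT15 cells with RNF26, against 44.4, 52.3 and 43.6 TPM in HCT15 control cells, where control replicate 2 overlapped the RNF26 group. It was not called (log2 fold change 0.23, SE 0.092, limma adjusted p = 0.0721), but passed upward in 5 of 24 alternatives: both scalings, leaving out the mitochondrial and ribosomal genes, and without HCT15 control replicate 2 or HCT15 RNF26 replicate 1. CLK4 had 12.3, 15.4 and 12.9 TPM in HCT15 cells with RNF26, against 13.6, 12.6 and 12.7 TPM in HCT15 control cells, and its ranges overlapped (log2 fold change 0.05, SE 0.094, limma adjusted p = 0.71). SRPK1 and SRPK2, the cytoplasmic kinases, had values of -0.19 (limma adjusted p = 0.0894) and -0.23 (limma adjusted p = 0.0965) and were not called.

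Sums over a class show how much of each library these mRNAs took. The 11 SR protein mRNAs summed to 1161, 1335 and 1201 TPM in HCT15 cells with RNF26, against 1846, 1611 and 1784 TPM in HCT15 controls, and the groups did not overlap. The 6 kinase mRNAs summed to 194, 225 and 199 TPM with RNF26, against 251, 243 and 259 TPM in controls, also apart. The 20 hnRNP mRNAs summed to 7326, 8419 and 7731 TPM with RNF26, against 10329, 7945 and 10318 TPM in controls, and here control replicate 2 lay inside the RNF26 range. HNRNPA1 and HNRNPC together held 53.2% of hnRNP TPM in HCT15 cells with RNF26, against 47.7% in HCT15 controls, and 39.0% in HCT116 cells with RNF26, against 39.9% in HCT116 controls. HCT15 control replicate 2 was the lowest of the 3 controls for 30 of 41 members, and HCT15 RNF26 replicate 2 the highest of its group for 35. Without that control 29 members were lower and 2 (SRSF8 and CLK1) higher, with 30.2% and 7.51% of all genes. Without that RNF26 library 29 were lower and 0 higher, with 30.3% and 3.60% of all genes. The counts without these libraries are no test of the fall, since the libraries were named for lying against it. Without HCT15 control replicate 3, the one with the high mitochondrial share, 24 were lower and 0 higher, with 28.8% and 4.19% of all genes. Leaving out HCT15 control replicate 1 gave 20 lower and 0 higher, with 25.7% and 4.08% of all genes. Leaving out HCT15 RNF26 replicate 1 gave 20 lower and 1 (CLK1) higher, with 23.9% and 4.22%. Leaving out HCT15 RNF26 replicate 3 gave 22 lower and 0 higher, with 26% and 4.74%.

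**Figure D3:**
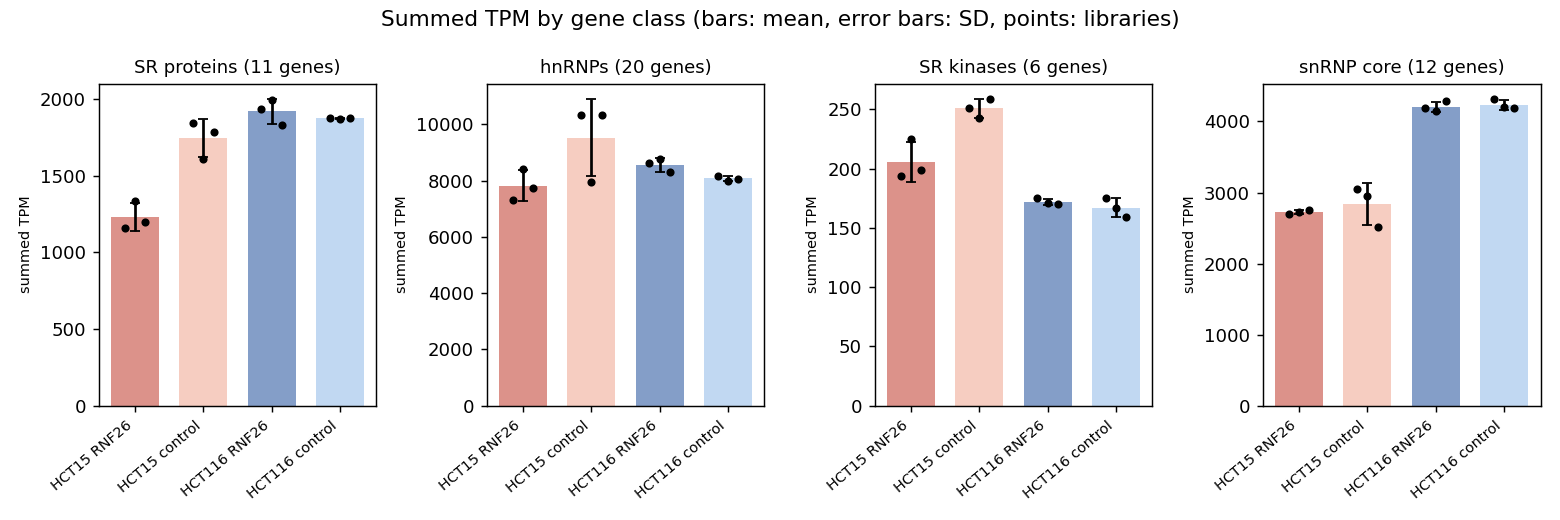
Summed TPM of the SR protein, hnRNP and SR kinase mRNAs and of 12 core snRNP mRNAs in the 4 groups, where bars are means, error bars the SD and points the 3 libraries. In HCT15 the RNF26 points lie below the control points for SR proteins and kinases and overlap them for hnRNPs and core snRNPs.

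A ratio of 2 mRNAs within a library does not depend on how the library is scaled. The pairs given here were chosen after their values were seen, so the ratios are a description without a test. HNRNPA1 over HNRNPA2B1 was 4.40 ± 0.207 in HCT15 cells with RNF26, against 2.72 ± 0.204 in HCT15 controls (SD, n = 3 each). In HCT116 it was 2.15 ± 0.0598 with RNF26 and 2.20 ± 0.0558 in controls. HNRNPC over HNRNPM was 33.8 ± 2.17 in HCT15 cells with RNF26, against 17.4 ± 1.33 in HCT15 controls, while HCT116 cells with RNF26 had 4.19 ± 0.163 and HCT116 controls 4.44 ± 0.0365. CLK1 over CLK2 was 3.30 ± 0.325 in HCT15 cells with RNF26, against 1.67 ± 0.181 in HCT15 controls. CLK4 over CLK3 was 0.343 ± 0.0364 in HCT15 cells with RNF26, against 0.187 ± 0.0109 in HCT15 controls. SRSF5 over SRSF2 was 2.19 ± 0.277 in HCT15 cells with RNF26, against 1.201 ± 0.188 in HCT15 controls. None of these 5 ratios had overlapping groups in HCT15.

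**Figure D4:**
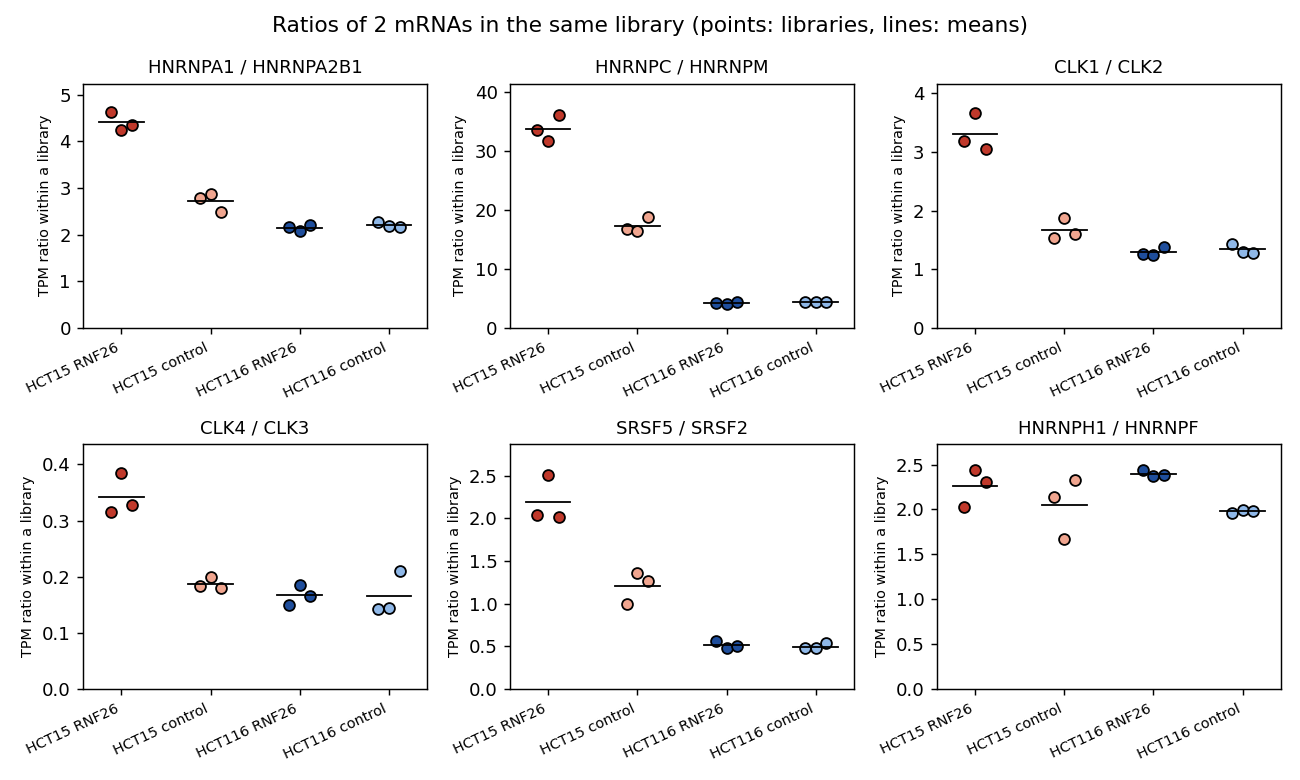
TPM ratio of 2 mRNAs within each library for 6 pairs, with points for libraries and lines for group means. For 5 pairs the HCT15 RNF26 points lie above the HCT15 control points, whereas HNRNPH1 over HNRNPF separates the HCT116 groups, at 2.40 ± 0.0329 with RNF26 and 1.98 ± 0.0127 in controls.

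In HCT116, where RNF26 mRNA was far more abundant, limma called 0 of the 41 members and RNF26 itself was the 1 gene called of 15584 (0.00642%). At an unadjusted p under 0.05 there were also 0 members, with 2.36% of all genes higher and 1.85% lower. These p-values and the SE values below use a spread pooled over all 4 groups, not that of HCT116 alone. The summed TPM of the 41 had an SD of 1564 in HCT15 controls and 103.8 in HCT116 controls (n = 3 each). The pooled SE can therefore exceed the scatter of the HCT116 libraries. In a fit of HCT116 alone 0 members were called at an adjusted p under 0.05, with 3 of all genes higher and 0 lower. Changes of mean TPM ran from -8.8% to 16.8%, and 32 members lay above 0 and 9 below, with a median log2 fold change of 0.07 over the members and 0.01 over all genes. For 15 members (36.6%) all HCT116 libraries with RNF26 lay above all HCT116 controls, against 7.25% of all genes, and for 0 they lay below, against 5.56% (12.8% of all genes in either direction). HNRNPDL, a relative of HNRNPD, had the smallest p and was at 308, 309 and 291 TPM in HCT116 cells with RNF26, against 264, 274 and 278 TPM in HCT116 control cells. These did not overlap (log2 fold change 0.15, SE 0.072, limma adjusted p = 1). HNRNPH1 was at 607, 598 and 561 TPM in HCT116 cells with RNF26, against 509, 515 and 488 TPM in HCT116 control cells, without overlap, the widest difference of the 41 (log2 fold change 0.22, SE 0.13, limma adjusted p = 1). HNRNPD was at 302, 335 and 297 TPM in HCT116 cells with RNF26, against 275, 278 and 264 TPM in HCT116 control cells, again without overlap (log2 fold change 0.19, SE 0.11, limma adjusted p = 1). SRSF1 was measured at 243, 261 and 228 TPM in HCT116 cells with RNF26, against 233, 224 and 223 TPM in HCT116 control cells, and its groups overlapped (log2 fold change 0.10, SE 0.064, limma adjusted p = 1). In each of the 24 alternatives 0 members were called.

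A few members lay below 0 in HCT116 while most of their class lay above. HNRNPF did so among the F/H hnRNPs, at 249, 252 and 236 TPM in HCT116 cells with RNF26, against 259, 259 and 247 TPM in HCT116 control cells, with overlap. SRSF3 was at 245, 230.3 and 187 TPM in HCT116 cells with RNF26, against 222, 223 and 281 TPM in HCT116 control cells, with overlap. SRSF8 was at 22.6, 17.5 and 18.7 TPM in HCT116 cells with RNF26, against 20.9, 20.3 and 20.5 TPM in HCT116 control cells, and here too the ranges overlapped. SRSF4, HNRNPL and HNRNPLL had log2 values of -0.02, -0.02 and -0.02. SRSF4 was at 35.8, 37.0 and 32.6 TPM in HCT116 cells with RNF26, against 35.7, 33.2 and 37.7 TPM in HCT116 control cells. HNRNPL was at 204, 229 and 180.3 TPM in HCT116 cells with RNF26, against 215, 213 and 191 TPM in HCT116 control cells. HNRNPLL was at 22.1, 23.4 and 20.4 TPM in HCT116 cells with RNF26, against 23.3, 21.4 and 22.3 TPM in HCT116 control cells. The groups of all 3 overlapped. Of the kinases CLK3, CLK4 and SRPK2 lay below 0 and the other 3 above, and 0 were called. The signs of SRSF4, SRSF8, HNRNPL, HNRNPLL, CLK3, CLK4 and SRPK2 turned in at least 1 alternative.

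The difference between the lines was tested directly, as the HCT15 effect minus the HCT116 effect. An effect is the change between RNF26 and control libraries of a line, and would include any difference between their cultures. By limma at an adjusted p under 0.05 the difference was below 0 for 22 of 41 members (53.7%) and above 0 for 0. Over all genes the shares were 18.7% and 1.80%. Among the 10700 genes with 5 TPM or more in at least 3 libraries, the difference was below 0 for 27.2% and above for 2.75%. For the members it was then below 0 for 25 and above for 0. At an unadjusted p under 0.05 it was below 0 for 29 and above for 0, against 28.8% and 4.82% of all genes. The median difference was -0.42 over the members and -0.18 over all genes, and after median-ratio scaling -0.20 and -0.006, with 13 members below 0 and 1 above against 7.35% and 5.99% of all genes. SRSF6 had the smallest p, with log2 effects of -0.90 in HCT15 and 0.06 in HCT116, a difference of -0.96 (SE 0.12, limma adjusted p = 0.00131). In HCT116 it was at 95.7, 104 and 91.3 TPM with RNF26, against 94.8, 98.5 and 86.0 TPM in controls, so those groups overlapped. CLK2 had effects of -0.72 in HCT15 and 0.12 in HCT116, a difference of -0.83 (SE 0.11, limma adjusted p = 0.00152). Its HCT116 libraries had 25.6, 26.5 and 22.5 TPM with RNF26, against 21.4, 23.0 and 23.9 TPM in controls, with overlap. SRSF7 had effects of -0.68 in HCT15 and 0.05 in HCT116, a difference of -0.73 (SE 0.10, limma adjusted p = 0.00193). SRSF7 was at 239, 234 and 238 TPM in HCT116 cells with RNF26, against 231, 226 and 228 TPM in HCT116 control cells, so that the HCT116 groups were narrowly apart in the direction opposite to HCT15. SRSF1 had effects of -0.53 in HCT15 and 0.10 in HCT116, a difference of -0.64 (SE 0.091, limma adjusted p = 0.00197). For 12 members the difference was called in all 23 alternatives: SRSF1, SRSF2, SRSF4, SRSF6, SRSF7, HNRNPA2B1, HNRNPA3, HNRNPL, HNRNPM, HNRNPR, HNRNPUL1 and CLK2. RNF26 itself was 2.01-fold higher in HCT15 and 17.6-fold higher in HCT116, so the effects compared do not come from equal levels of RNF26.

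The control cells compare the lines without RNF26 overexpression. By limma 22 of 41 (53.7%) were higher and 6 (14.6%) lower in HCT15 than in HCT116 controls, against 43.6% and 26.0% of all genes, and the median log2 fold change was 0.26 over the members and 0.22 over all genes. For 21 members all HCT15 controls lay above all HCT116 controls and for 6 below, against 44.8% and 27.1% of all genes (71.9% in either direction). All 6 kinases were among those higher. SRSF4 led, with 100.03, 79.8 and 115.78 TPM in HCT15 controls, against 35.7, 33.2 and 37.7 TPM in HCT116 controls, 2.77-fold and without overlap (log2 fold change 1.43, SE 0.12, limma adjusted p = 7.28e-07). HNRNPUL1 had 151, 121 and 167 TPM in HCT15 controls, against 70.9, 74.1 and 69.1 TPM in HCT116 controls and was also apart (log2 fold change 1.01, SE 0.11, limma adjusted p = 7.14e-06). CLK4, too, stood apart, with 13.6, 12.6 and 12.7 TPM in HCT15 controls, against 6.50, 5.73 and 6.58 TPM in HCT116 controls (log2 fold change 0.94, SE 0.094, limma adjusted p = 3.64e-06). Next came SRPK2, with 30.9, 29.9 and 35.5 TPM in HCT15 controls, against 18.9, 17.0 and 15.2 TPM in HCT116 controls (log2 fold change 0.88, SE 0.10, limma adjusted p = 1.20e-05). CLK3 and HNRNPDL were also higher. CLK3 had 74.3, 63.1 and 70.4 TPM in HCT15 controls, against 45.8, 39.95 and 31.3 TPM in HCT116 controls (log2 fold change 0.83, SE 0.12, limma adjusted p = 6.95e-05). HNRNPDL had 383, 369 and 388 TPM in HCT15 controls, against 264, 274 and 278 TPM in HCT116 controls (log2 fold change 0.48, SE 0.072, limma adjusted p = 0.000101). None of these 6 had overlapping control groups. HNRNPC, too, was higher in HCT15 controls (log2 fold change 0.69, SE 0.12, limma adjusted p = 0.000242).

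The 6 lower members were SRSF1, SRSF2, SRSF6, HNRNPAB, HNRNPD and HNRNPM, and all held in each of 24 alternatives. SRSF1 had the smallest p, with 105, 102 and 100.04 TPM in HCT15 controls, against 233, 224 and 223 TPM in HCT116 controls (log2 fold change -1.14, SE 0.064, limma adjusted p = 3.08e-08). HNRNPAB had 103, 89.9 and 88.7 TPM in HCT15 controls, against 236, 236 and 215 TPM in HCT116 controls (log2 fold change -1.28, SE 0.081, limma adjusted p = 8.53e-08). HNRNPM had 126, 94.6 and 117 TPM in HCT15 controls, against 269.5, 273 and 271 TPM in HCT116 controls (log2 fold change -1.27, SE 0.11, limma adjusted p = 9.01e-07). All 3 were lower in HCT15 controls without overlap. HNRNPD had 169.9, 131 and 164 TPM in HCT15 controls, against 275, 278 and 264 TPM in HCT116 controls (log2 fold change -0.82, SE 0.11, limma adjusted p = 5.24e-05). SRSF2 had 289, 192 and 229.8 TPM in HCT15 controls, against 439, 442 and 402 TPM in HCT116 controls (log2 fold change -0.87, SE 0.12, limma adjusted p = 6.03e-05). For SRSF6 the values were 67.5, 57.6 and 58.5 TPM in HCT15 controls, against 94.8, 98.5 and 86.0 TPM in HCT116 controls (log2 fold change -0.60, SE 0.086, limma adjusted p = 7.13e-05). These groups did not overlap either. Of the 22 higher members 13 held in every alternative and 9 did not (SRSF9, SRSF10, SRRM1, SRRM2, HNRNPA1, HNRNPF, HNRNPUL2, CLK2 and SRPK1). After median-ratio scaling 14 were higher and 13 lower, with 37.1% and 32.0% of all genes, and the median was 0.083 over the members and 0.067 over all genes. The HCT15 controls serve both this comparison and the HCT15 effect of RNF26, so values of the 2 comparisons stand side by side here without a test of their relation: SRSF4 was 1.43 between controls and -0.87 with RNF26, and HNRNPM was -1.27 between controls and -0.86 with RNF26.

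**Figure D5:**
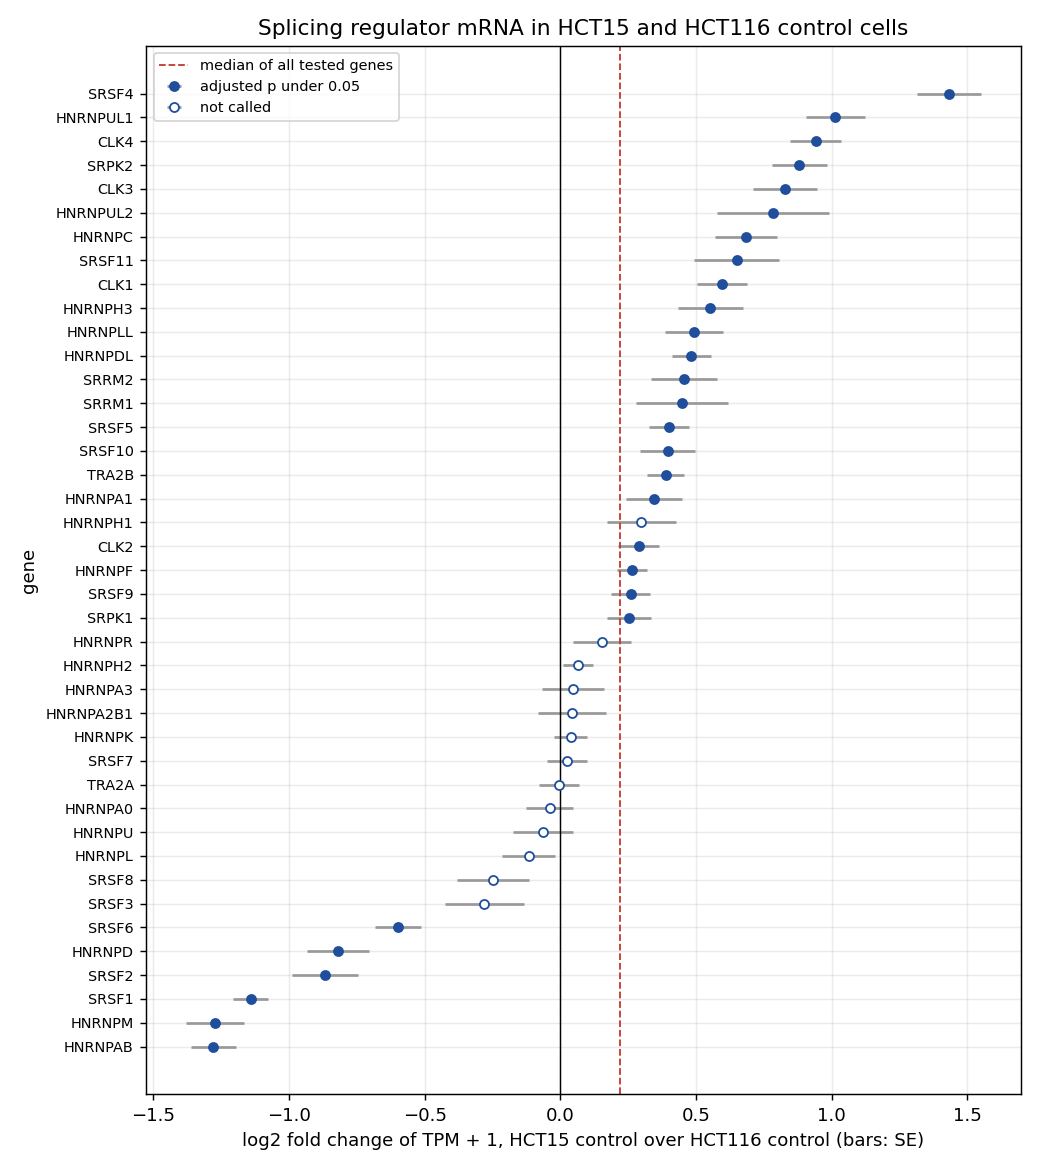
log2 fold change of TPM + 1 between HCT15 and HCT116 control cells with its SE for the 41 genes in order of size, where filled points passed an adjusted p under 0.05 and the dashed line is the median of all tested genes. SRSF4, HNRNPUL1 and CLK4 stand at the top, and SRSF1, HNRNPM and HNRNPAB at the bottom.

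Other parts of the splicing machinery were counted beside these genes in HCT15, where 31.2% of all tested genes were lower and 5.39% higher. Of 12 core snRNP genes 3 fell and 2 rose. SNRNP70, the U1 protein that SR proteins contact at the 5' splice site, was at 70.3, 79.7 and 79.8 TPM in HCT15 cells with RNF26, against 190.3, 143 and 189 TPM in HCT15 control cells, without overlap (log2 fold change -1.17, SE 0.11, limma adjusted p = 5.08e-05), followed by SNRPB at -0.42 (limma adjusted p = 0.00636) and SNRPA at -0.32 (limma adjusted p = 0.0112). SNRPB2, a U2 protein, rose (log2 fold change 0.47, SE 0.13, limma adjusted p = 0.0124). Of 13 genes of the U2 snRNP and branch site 9 fell and 1 rose, led by U2AF2 at -0.86 (limma adjusted p = 5.69e-05), which reads the polypyrimidine tract, SF3B2 at -0.76 (limma adjusted p = 0.000128), SF3A1 at -1.11 (limma adjusted p = 0.000289) and SF3A2 at -0.71 (limma adjusted p = 0.000927). Of 26 tri-snRNP and catalytic genes 18 fell and 1 rose, with SNRNP200 at -0.87 (limma adjusted p = 5.21e-05), PRPF8 at -0.92 (limma adjusted p = 5.69e-05), PRPF31 at -0.79 (limma adjusted p = 6.38e-05) and DHX38 at -0.90 (limma adjusted p = 0.000102) ahead. Of 38 other splicing regulators 23 fell and 0 rose, among them PTBP1 at -0.93 (limma adjusted p = 0.00016), the polypyrimidine tract repressor, RNPS1 at -0.84 (limma adjusted p = 6.42e-05), EWSR1 at -0.68 (limma adjusted p = 0.000109) and RBM10 at -0.76 (limma adjusted p = 0.000339). Of 14 exon junction and nonsense-mediated decay genes 10 fell and 1 rose, including the helicase UPF1 at -0.91 (limma adjusted p = 0.00042), CASC3 at -0.59 (limma adjusted p = 0.000995), SMG9 at -0.55 (limma adjusted p = 0.00107) and SMG5 at -0.59 (limma adjusted p = 0.0031). Of 6 transport factors 3 fell and 0 rose: ALYREF at -0.81 (limma adjusted p = 5.69e-05), an mRNA export adaptor, and the importins TNPO2 at -0.53 (limma adjusted p = 0.00227) and TNPO3 at -0.29 (limma adjusted p = 0.00935), of which TNPO3 carries phosphorylated SR proteins. The median log2 fold changes of these 6 lists were -0.09, -0.41, -0.41, -0.37, -0.39 and -0.29, in the order given, against -0.17 for all genes. In HCT116 limma called 0 genes of the 6 lists, with 3 at an unadjusted p under 0.05.

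Immediate early genes respond to handling and to serum. In HCT15, 11 of 12 tested were lower with RNF26, against 31.2% of all genes. The 4 of smallest p were IER2 at -1.02 (limma adjusted p = 0.000112), ZFP36 at -1.08 (limma adjusted p = 0.000144), IER3 at -0.66 (limma adjusted p = 0.000172) and EGR1 at -1.26 (limma adjusted p = 0.000211). Epithelial VIL1 and CDX2 were also lower: they fell by 1.59 and 1.37 on the log2 scale (limma adjusted p = 6.40e-05 and 0.000479). The part of these and of TUBB3 in the falls of the splicing genes was not tested.

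The members share features that were not used to choose them. A transcript annotated for nonsense-mediated decay was listed for 33 of 41 (80.5%), against 44.0% of 12486 tested protein-coding genes, and a retained-intron transcript for 31 (75.6%), against 57.7%. The members also had more annotated transcripts, with a median of 12 against 8, and the shares were not matched for that number or for expression level. Their median GC content was 43.82%, against 50.2%, and the median transcript length 1306.5 bases, against 1007. Across the 41 genes, which share libraries and differ in base composition, Spearman's rho of GC content with the HCT15 log2 fold change was -0.41, as it was -0.42 across all tested genes with a value, and that of transcript length was -0.02. CLK1 and CLK4 had the lowest GC content of the 41 (37.25% and 37.36%), and CLK3 (56.39%), HNRNPUL1 (56.36%) and SRRM2 (56.23%) the highest. With a correction for GC content and length 22 members were lower and 0 higher in HCT15, of which 21 were among the 25, with 16.2% and 11.9% of all genes.

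Some values are uncertain because loci overlap or resemble each other. Of the 41 genes 20 overlap another gene of 1 TPM or more, 16 of them on the opposite strand and 5 on the same. SRRM2 overlaps ELOB, HNRNPA2B1 overlaps CBX3 and SRSF2 overlaps MFSD11, each on the opposite strand, with the neighbour reaching 264, 232 and 11.9 TPM at most. The library kit marks strand, but no source at hand says whether quantification used it. SRSF1 overlaps a protein-coding gene on the same strand that reached 38.8 TPM at most. Strand does not separate these, so the split of reads between them is uncertain. Of 149 pseudogenes, like genes, readthroughs and antisense loci named after members, 16 reached 1 TPM, and HNRNPA1L2 reached 12.8 TPM at most. HNRNPUL2-BSCL2, a readthrough of HNRNPUL2, was at 22.3, 27.9 and 24.3 TPM in HCT15 cells with RNF26, against 40.5, 33.2 and 49.3 TPM in HCT15 controls. Splicing isoforms were not analysed here, since the table holds 1 value per gene.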

How the data were processed

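Expression was analysed in 12 libraries, grouped by the sample titles into 4 groups of 3. Per the labels' protocols, poly(A) RNA was selected from TRIzol extracts and libraries were made with a stranded kit. The authors deposited TPM values, 1 column per library with 2 decimals. Each column sums to about 1000000. The build GRCh38 and the tools fastp, HISAT2, StringTie and RSEM are named, per the submitters' processing notes, with no version, role or strand setting. TPM holds no counts, so depth is unknown, and no counting interval is given.

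Symbols, positions, GC content and lengths came from GENCODE and RefSeq tables by Ensembl number. The 15584 genes with 1 TPM or more in at least 3 libraries were tested with limma 3.58.1 (R 4.3.3) on log2 of TPM plus a pseudocount of 1, which understates changes of low genes, in 1 fit with a mean per group, a mean-variance trend, 8 residual and 3.09 prior degrees of freedom. Two-sided p-values were adjusted by Benjamini-Hochberg over all tested genes and called under 0.05. The fit was run on simulated data with independent noise per gene, equal spread in all groups and few changed genes. Those data held no broad shift such as that in HCT15, so they do not check the calls made there.

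Members, lists and tests were chosen with earlier results of these data known. Values per library are given for the 6 called members of smallest p in each direction in HCT15 and between controls, for 4 in HCT116 and in the difference, and for members against their class. Other members given per library were chosen after their values were seen. Up to 4 genes of each other list were named by smallest p in HCT15. No library was a copy of another (at least 24770 identifiers differed between any pair). Replicate numbers were not shown to pair libraries. Alternatives were pseudocounts of 0.1 and 5, other filters, scalings, a GC and length correction (95.3% of tested genes had both), fits of only the groups compared, other variance models, a replicate block, and each library left out.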

Additional observations from a re-analysis of the deposited data

Results flagged for a closer look

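For 22 of the 41 genes the change between RNF26 and control libraries differed between the lines (HCT15 minus HCT116). This was a direct limma test at an adjusted p under 0.05 over all tested genes. Of all genes 18.7% had a difference below 0. All 22 differences were below 0. On the log2 scale they were, among SR proteins, SRSF6 (-0.96), SRSF7 (-0.73), SRSF1 (-0.64), SRSF2 (-1.15), SRSF4 (-0.85), SRSF10 (-0.57), SRSF9 (-0.38) and SRSF5 (-0.35). Among SR-related factors they were SRRM2 (-0.83), TRA2A (-0.50) and TRA2B (-0.32). For hnRNPs the differences were HNRNPM (-1.01), HNRNPA2B1 (-1.06), HNRNPA3 (-0.91), HNRNPL (-0.77), HNRNPUL1 (-0.83), HNRNPR (-0.78), HNRNPF (-0.36), HNRNPA0 (-0.42) and HNRNPAB (-0.36), and for kinases CLK2 (-0.83) and CLK3 (-0.72). Over the 23 alternatives 12 of the 22 kept the call and 10 lost it at least once: SRSF5 and TRA2B in 16, HNRNPAB in 15, HNRNPA0 in 13, SRSF9 in 7, CLK3 and SRSF10 in 3, HNRNPF in 2, and SRRM2 and TRA2A in 1. RNF26 itself was raised to different levels in the lines, which cannot be told apart from the line here. A difference between the cultures of the groups cannot be told apart from RNF26 either, since the cultures are not described.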

How the results depend on the processing

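Each count was recomputed under 24 alternatives, or 23 for the difference between lines, since a fit of only the groups compared needs all 4 groups there. HCT116 gave 0 called members in all of them. After median-ratio scaling HCT15 had 17 lower and 5 higher members, the difference between lines 13 lower and 1 higher (CLK1; all genes 7.35% and 5.99%), and the control comparison 14 higher and 13 lower. After quantile normalization HCT15 had 20 lower and 4 higher, and the difference 16 lower and 1 higher (CLK1; all genes 6.90% and 5.52%). When mitochondrial and ribosomal genes were left out, HCT15 had 19 lower and 2 higher. With the GC and length correction the difference had 14 lower (all genes 6.82%), and the control comparison 14 higher and 10 lower (all genes 36.3% and 34.3%). HNRNPK passed the threshold after median-ratio scaling with signs turned, at 0.17 in HCT15 (limma adjusted p = 0.0442) and -0.14 between controls (0.0444), and HNRNPAB in HCT15 turned to 0.029 with the GC and length correction (0.745). The cause of these shifts was not tested beyond each setting's own construction. Leaving out 1 library at a time gave 20 to 29 lower and 0 to 2 higher in HCT15, with 23.9% to 31.1% and 3.6% to 7.51% of all genes. The difference had 17 to 28 lower and 0 higher, with 11.6% to 20.7% and 0.847% to 4.08% of all genes. Between controls 20 to 26 were higher and 6 to 7 lower, with 40.7% to 43.7% and 24.1% to 26.3% of all genes. RNF26 ratios then ranged from 1.99 to 2.04 in HCT15 and from 16.4 to 18.8 in HCT116. Where a group kept 2 libraries, its spread was taken from the pooled fit.

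The replicate numbers were tried as pairing. Deviations of same-numbered libraries correlated at 0.01, 0.01 and 0.15 in HCT15 and at -0.03, -0.04 and -0.03 in HCT116, so the numbers were not shown to pair libraries. With the replicate block 24 members were lower in HCT15, 19 in the difference (without SRSF5, TRA2B and HNRNPAB), and 22 higher and 6 lower between controls, with 0 in HCT116. Of all genes 29.9% were then lower in HCT15, 16.6% lower in the difference, and 43.2% higher and 25.9% lower between controls.

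Of single-gene values over all alternatives 3580 kept direction and side of the threshold, 168 lost a call, 62 gained 1 and 3 turned with a call in 1 of the settings. Another 82 changed sign without a call in either setting, for 8 members in HCT15, 13 in HCT116, 7 in the difference and 9 between controls. TPM fixes each library's total, so all changes are relative. Without counts, the precision of low genes such as HNRNPUL2 is limited by an unknown depth.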
